A study of Homo sapiens with 8 samples.

Results

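The NRF2 pathway was followed here through 9 genes, chosen by gene symbol among the 13771 genes of the deposited expression table: NFE2L2, KEAP1, HMOX1, OSGIN1, NQO1, TXNRD1, SRXN1, GCLC and GCLM. All 9 were present in the table. NFE2L2 encodes NRF2, a transcription factor that KEAP1 holds in the cytoplasm and hands to the proteasome. When oxidants or electrophiles modify KEAP1, NRF2 accumulates in the nucleus, pairs with small MAF proteins at antioxidant response elements and induces genes for glutathione synthesis, thioredoxin reduction, quinone detoxification and heme breakdown. HMOX1, the inducible heme oxygenase, is also held down by the repressor BACH1 at the same elements, so its level does not follow NRF2 alone. In breast epithelium the pathway is known for its protection against oxidative damage and for its activation in part of the tumours.

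RNA was sequenced from MCF10A, an immortalised non-tumorigenic breast epithelial line, and DCIS.COM, a related line that forms lesions resembling ductal carcinoma in situ. Lentivirus had brought into each line a vector carrying the long noncoding RNA HOTAIR (pCDH-HOTAIR) or the same vector without insert (pCDH-empty), and all cells had been selected with puromycin. There were 4 groups of 2 libraries, 8 in all, and the labels do not say whether the 2 libraries of a group came from separate cultures, so that the p-values may measure technical spread only. The MCF10A medium held EGF, hydrocortisone, insulin and cholera toxin besides horse serum, whereas the DCIS.COM medium held horse serum only, so cell line and medium cannot be told apart. Values are log2 CPM, the base-2 logarithm of read counts scaled by library size (CPM), as deposited by the authors. Calls required, in limma, a fold change of at least 1.5 together with a p under 0.05 after Benjamini-Hochberg adjustment over all genes. In such bulk samples, fewer expressing cells and less RNA per cell cannot be told apart.

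Library depth ran from 19306864 to 34884841 reads. In MCF10A, HOTAIR itself had 40 and 45 reads with the empty vector and 4614 and 4827 with pCDH-HOTAIR, and in DCIS.COM 119 and 140 against 6385 and 7166, so every library followed its label. All 8 breast epithelial markers examined were in the table, with a summed level of 5757 to 7643 CPM over the libraries. Of 11 markers of other cell types only CD68, PECAM1 and ACTA2 were in the table, with a summed level of 36.2 to 40.2 CPM in MCF10A and 18.0 to 21.4 CPM in DCIS.COM, and their part in the differences between the lines was not tested. The 2 DCIS.COM pCDH-empty libraries stood further apart than any other pair: over 12222 genes their median absolute difference was 0.20 log2 units, against 0.072 and 0.077 in the MCF10A groups and 0.058 in DCIS.COM pCDH-HOTAIR. The first of them also gave 18.9% of its reads to the RN7SL1 and RN7SL2 RNAs, against 11.1% to 14.95% in the other libraries. For members, many values resting on this pair are also given with a library of it left out. For the genes of the lists below no such values are given.

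The antioxidant response element is usually written with the core TGACNNNGC, and a second form, TGAGNNNGC, and the AP-1 element, TGACTCA, were searched beside it. RefSeq promoter windows (table of GRCh38.p14; each window matched the hg19 assembly exactly once) were found for 8 members, with 11 start sites. No window was found for HMOX1, so its promoter was not searched. In the 250 bases before the start, on either strand, the TGACNNNGC core was present for GCLM, TXNRD1 and KEAP1, that is in 4 of the 11 windows, whereas 10.9% of 35116 promoters held it. The stretches are shown because they place the letters relative to each gene start. They are on the gene's strand in GRCh37 coordinates, and capitals mark the match.
GCLM, chr1:94375002-94375030: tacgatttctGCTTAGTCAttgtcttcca
TXNRD1, first start, chr12:104609448-104609476: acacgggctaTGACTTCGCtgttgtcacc
TXNRD1, second start, chr12:104680698-104680726: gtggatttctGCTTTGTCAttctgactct
KEAP1, chr19:10613460-10613488: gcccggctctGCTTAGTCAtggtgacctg
OSGIN1, chr16:83986736-83986764: acgggcccctGCTGACTCAcgcttatgaa

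The matches shown for GCLM, TXNRD1 (second start) and KEAP1 read as the core on the opposite strand. They began 34, 102 and 31 bases before their start sites, and the match at the first TXNRD1 start began 99 bases before it. The same KEAP1 window held a further core match, not shown, on the gene's strand, which began 54 bases before the start. In the GENCODE annotation, 11 of the 29 bases shown for GCLM and all 29 for KEAP1 and the second TXNRD1 start lay in an exon of the gene itself, whereas those of the first TXNRD1 start and of OSGIN1 lay outside any exon. The OSGIN1 stretch, whose match began 99 bases before the start, holds TGAGNNNGC on the opposite strand, and this match overlaps the single TGACTCA found among the members. TGACTCA was present in 4.203% of all promoters. TGAGNNNGC was present upstream of NFE2L2, TXNRD1, NQO1, OSGIN1 and KEAP1, that is in 5 of the 11 windows, against 14.8% of all promoters. None of the 3 patterns was found in the 250 bases before the GCLC and SRXN1 starts. Such matches describe letters in a window and not the binding of a factor.

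Expressed per kilobase of the MANE Select transcript, the members covered a wide range of levels in the MCF10A pCDH-empty group. TXNRD1 (thioredoxin reductase) was highest with 71.4 ± 4.47 CPM per kb (SD, n = 2), followed by NQO1 with 52.0 ± 0.0887. NFE2L2 reached 36.6 ± 1.06, SRXN1 31.5 ± 0.728 and KEAP1 29.1 ± 1.13 CPM per kb, the last 2 differing by little more than their spread. GCLC (17.1 ± 0.388) lay above GCLM (13.1 ± 0.208). HMOX1 with 4.36 ± 0.299 and OSGIN1 with 1.23 ± 0.0278 CPM per kb were the lowest. In DCIS.COM pCDH-empty, NQO1 took the first rank with 233 ± 4.03, ahead of TXNRD1 with 70.0 ± 0.510 CPM per kb. KEAP1 (23.0 ± 1.48), NFE2L2 (22.7 ± 0.806) and GCLC (21.2 ± 2.93) could not be ordered within their spread. HMOX1 was the lowest member there with 2.77 ± 0.591 CPM per kb, below OSGIN1 with 4.57 ± 0.341. The order depends on the length used: per kilobase of coding sequence SRXN1, whose coding part is short, ranked first in MCF10A with 194 CPM per kb.

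**Figure D1:**
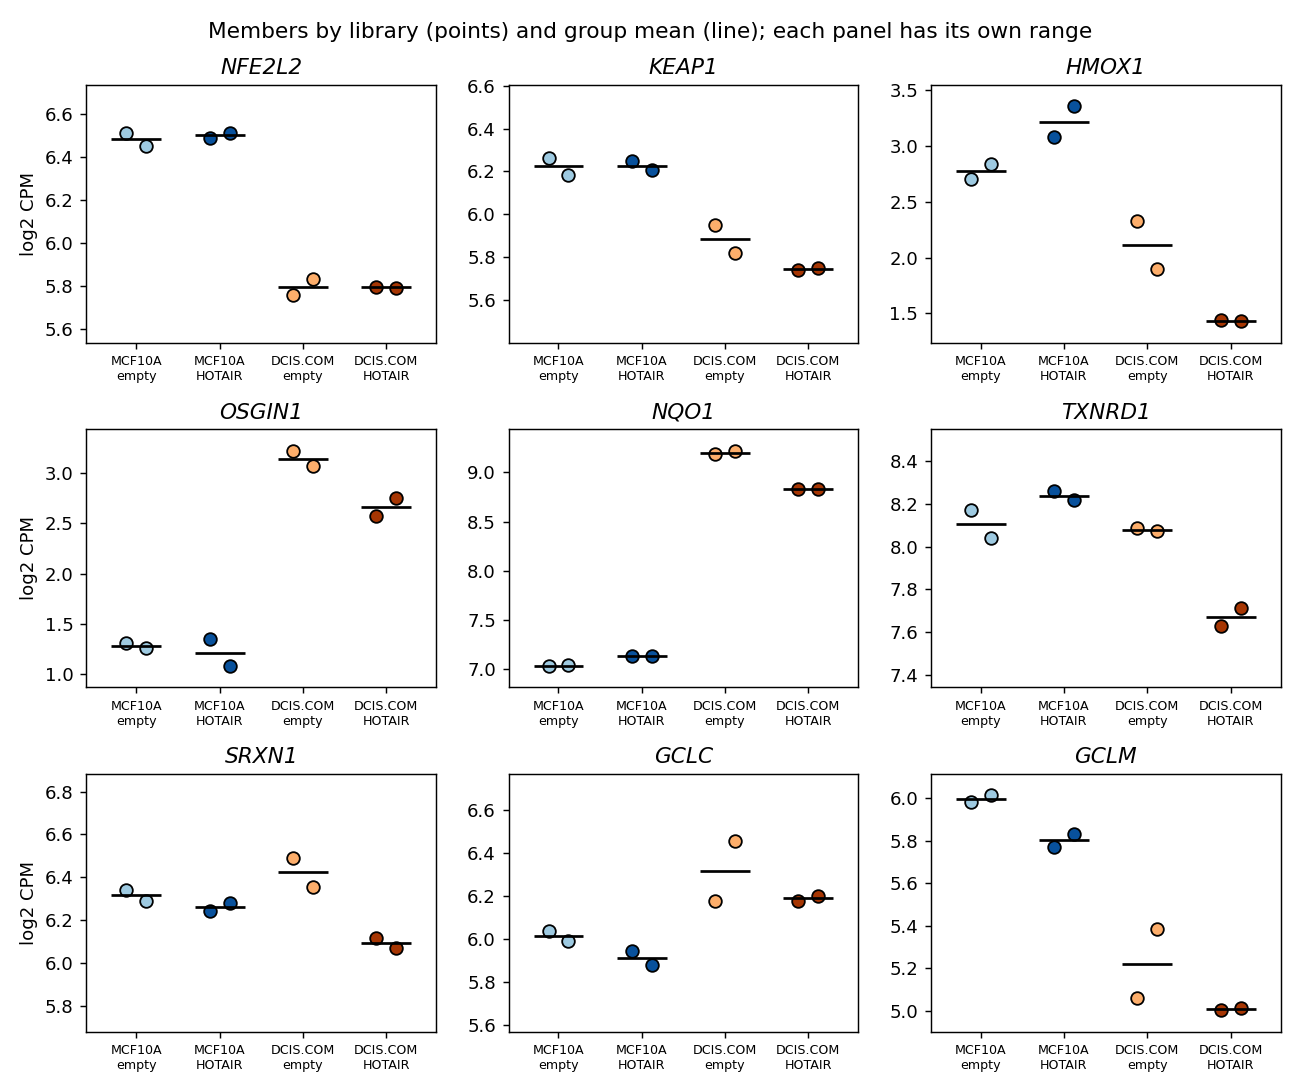
Level of the 9 members in each library (points, log2 CPM) with the mean of each group (line), each panel on its own range. NQO1 and OSGIN1 lie higher in both DCIS.COM groups, NFE2L2 and GCLM lower, and the HMOX1 points of the 4 groups do not overlap.

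Between the empty-vector groups, the question was how far the pathway differs between the non-tumorigenic and the DCIS-like line. NQO1 and OSGIN1 were upregulated in DCIS.COM, whereas NFE2L2, GCLM and HMOX1 were downregulated. These 2 members called higher stand beside 22.5% of all genes called higher, and the 3 called lower beside 23.8% called lower, so calls were common between the lines. The median over the 9 members was -0.026 on the log2 scale, against -0.00012 over all genes.

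NFE2L2 (chr2:178083395-178257484 in hg19) measured 6.51 and 6.46 log2 CPM with pCDH-empty in MCF10A and 5.76 and 5.83 in DCIS.COM pCDH-empty. The groups did not overlap, and the transcript of NRF2 itself was lower in DCIS.COM by a log2 fold change of -0.69 (SE 0.062, limma adjusted p = 2.45e-05). With HOTAIR it measured 6.49 and 6.51 log2 CPM in MCF10A and 5.80 and 5.79 in DCIS.COM, inside the spread of the empty-vector libraries in each line. KEAP1, its cytoplasmic adaptor for ubiquitination (chr19:10596801-10614234), measured 6.26 and 6.18 log2 CPM in MCF10A pCDH-empty and 5.95 and 5.82 in DCIS.COM pCDH-empty. The log2 fold change of KEAP1 between the lines, -0.34 (95% interval -0.50 to -0.18), had an adjusted p of 0.00298 from limma but remained under the 1.5-fold threshold. It was -0.40 without the first and -0.27 without the second DCIS.COM pCDH-empty library. With HOTAIR, KEAP1 measured 6.25 and 6.21 log2 CPM in MCF10A and 5.74 and 5.75 in DCIS.COM. After a correction for GC content the NFE2L2 log2 fold change between the lines was -0.55, which is under 1.5-fold. Exons of HNRNPA3 and of a noncoding gene overlap those of NFE2L2 on the opposite and the same strand, and the counting setting for strand is not given in the sources used here, so part of its reads may be shared.

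NQO1, a quinone reductase often used as readout of NRF2 (chr16:69740899-69760571), had the largest difference of any member between the lines. It measured 7.03 and 7.04 log2 CPM in MCF10A pCDH-empty and 9.18 and 9.22 in DCIS.COM pCDH-empty. The 2 lines were far apart relative to the spread within either, and NQO1 was 4.49-fold higher in DCIS.COM (log2 fold change 2.17, SE 0.055, limma adjusted p = 3.22e-08). The log2 fold change stayed between 2.11 and 2.21 under the alternatives tried, library removals included. OSGIN1, an oxidative stress-induced growth inhibitor (chr16:83964916-83999937), measured 1.31 and 1.26 log2 CPM in MCF10A pCDH-empty and 3.22 and 3.07 in DCIS.COM pCDH-empty. These levels rest on 75 and 62 reads in MCF10A and on 278 and 223 in DCIS.COM. It was 3.63-fold higher in DCIS.COM (log2 fold change 1.86, SE 0.15, limma adjusted p = 1.10e-05). OSGIN1 shares 8.22% of its exonic length with MLYCD on the same strand, so its reads are in part uncertain.

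The 2 subunits of glutamate-cysteine ligase, the first enzyme of glutathione synthesis, differed in sign between the lines. The modifier subunit GCLM (chr1:94350755-94375012) measured 5.98 and 6.01 log2 CPM in MCF10A pCDH-empty and 5.06 and 5.38 in DCIS.COM pCDH-empty, without overlap. It was lower in DCIS.COM by -0.78 on the log2 scale (SE 0.10, limma adjusted p = 0.000243), by -0.61 without the first and -0.94 without the second DCIS.COM pCDH-empty library, and by -0.50, under 1.5-fold, after GC correction. The catalytic subunit GCLC (chr6:53362139-53481768) measured 6.04 and 5.99 log2 CPM in MCF10A pCDH-empty and 6.18 and 6.46 in DCIS.COM pCDH-empty. The difference came to a log2 fold change of 0.30 (95% interval 0.086 to 0.52, limma adjusted p = 0.0202), under the fold threshold, and was 0.45 without the first DCIS.COM pCDH-empty library and 0.16 without the second. The DCIS.COM pCDH-empty pair spread by 0.32 log2 units in GCLM and 0.28 in GCLC, the second library being the higher in both.

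Neither thioredoxin member was called between the lines. TXNRD1 (chr12:104609557-104744085), which reduces thioredoxin, measured 8.17 and 8.04 log2 CPM in MCF10A pCDH-empty and 8.09 and 8.07 in DCIS.COM pCDH-empty, the groups overlapping. The log2 fold change was -0.026 (95% interval -0.18 to 0.13), and 0.017 after median centring. SRXN1, or sulfiredoxin, which restores over-oxidised peroxiredoxins (chr20:627259-633844), measured 6.34 and 6.29 against 6.49 and 6.36 log2 CPM, a log2 fold change of 0.11 (95% interval -0.052 to 0.27, limma adjusted p = 0.199), which was 0.039 without the first and 0.17 without the second DCIS.COM pCDH-empty library. A readthrough gene on the same strand covers 90.7% of the exonic length of SRXN1, so its reads cannot be assigned to SRXN1 alone.

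HMOX1 (chr22:35776354-35790207) was a low-abundance transcript in both lines. With the empty vector it measured 2.70 and 2.84 log2 CPM in MCF10A, from 201 and 189 reads, and 2.33 and 1.90 in DCIS.COM, from 149 and 98 reads. It was lower in DCIS.COM by -0.66 on the log2 scale (SE 0.17, limma adjusted p = 0.00961), just past the 1.5-fold threshold. Without the first DCIS.COM pCDH-empty library the value was -0.88. The call did not hold without the second MCF10A pCDH-empty library (-0.59, limma adjusted p = 0.0646) or without the second DCIS.COM pCDH-empty library (-0.44, limma adjusted p = 0.0320), nor with a pseudocount of 1 (-0.56) or quantile normalisation (-0.57). Over all alternatives the adjusted p ranged from 0.00121 to 0.0646.

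**Figure D2:**
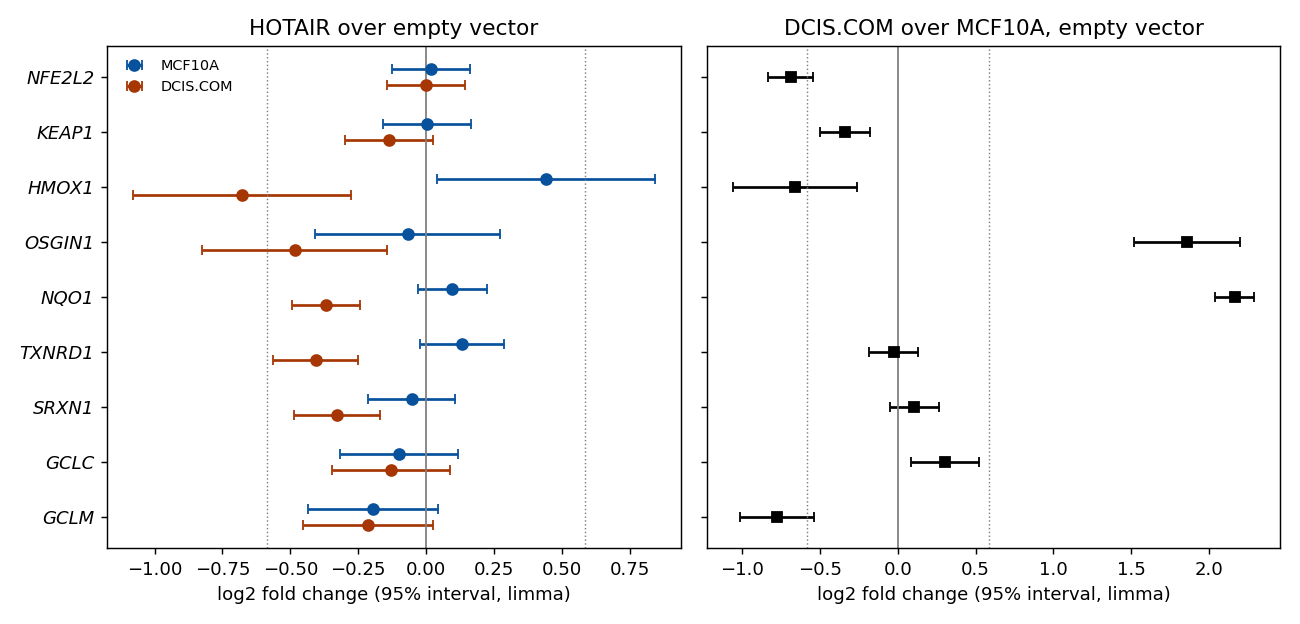
Log2 fold changes of the 9 members with 95% intervals from limma: HOTAIR over empty vector in each line (left) and DCIS.COM over MCF10A with the empty vector (right). Dotted lines mark a 1.5-fold change; in DCIS.COM the HOTAIR values of 5 members lie below 0 with intervals that exclude it, and NQO1 and OSGIN1 stand far to the right between the lines.

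The second question was what HOTAIR did to the pathway in each line. In MCF10A, 0 of the 9 members were called by limma, as were 0.0218% of all genes, and limma-voom on reads recovered from the values also called 0. At an unadjusted p under 0.05 there was 1 member, HMOX1, beside 7.28% of all genes. The groups share a common estimate of spread, so the wide DCIS.COM pCDH-empty pair also enters the p-values of MCF10A. In a separate limma fit of MCF10A, 3 members passed that limit. The share of all genes was not computed there, so this count cannot be read as a result about the members. Values did not overlap between the vectors and were higher with HOTAIR for HMOX1, NQO1 and TXNRD1 (22.5% of all genes), and lower for GCLM, GCLC and SRXN1 (24.8% of all genes). The median over the members was 0.0033, against -0.0055 over all genes.

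HMOX1 had the largest HOTAIR value of the members in MCF10A. It measured 3.08 and 3.35 log2 CPM with pCDH-HOTAIR, from 162 and 203 reads, both above the 2.70 and 2.84 of the empty vector. The log2 fold change was 0.44 (SE 0.17, 95% interval 0.041 to 0.84), with an unadjusted p of 0.0346 and an adjusted p of 0.615 from limma. TXNRD1 measured 8.26 and 8.21 log2 CPM with HOTAIR, a log2 fold change of 0.13 (95% interval -0.024 to 0.29). NQO1 measured 7.13 in both HOTAIR libraries, a log2 fold change of 0.097 (95% interval -0.030 to 0.22). On the other side GCLM measured 5.77 and 5.83 with HOTAIR, a log2 fold change of -0.20 (95% interval -0.43 to 0.043). GCLC (5.95 and 5.88) and SRXN1 (6.25 and 6.28) differed from the empty vector by -0.10 and -0.053. For OSGIN1 the HOTAIR libraries, at 1.35 and 1.09 log2 CPM from 48 and 41 reads, lay on both sides of the empty-vector values. The log2 fold changes of NFE2L2 and KEAP1 were 0.018 and 0.0033, the latter turning to -0.0054 with RN7SL1 and RN7SL2 left out of the library total.

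In DCIS.COM, limma again called 0 of the 9 members, beside 0.0871% of all genes called, and limma-voom on recovered reads called 0. The log2 fold change was below 0 for 8 of 9 members. At an unadjusted p under 0.05 there were 5 members, HMOX1, NQO1, TXNRD1, SRXN1 and OSGIN1, against 17.5% of all genes. Values lay below those of the empty vector without overlap for 7 of 9 members, against 24.5% of all genes, and above them for 0 members, against 24.7% of all genes. The median over the members was -0.33 on the log2 scale, whereas over all genes it was 0.010 and 47.7% of genes were lower.

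The adjusted p-values in DCIS.COM moved with the GC correction and with the empty-vector pair. With GC correction, NQO1, GCLM and TXNRD1 had an adjusted p under 0.05 in limma (0.0153, 0.0253 and 0.0355), beside 0.9% of all genes, and all 3 stayed under 1.5-fold. Without the first pCDH-empty library the same 3 members passed that limit (0.00388, 0.0227 and 0.0246), beside 1.3% of all genes. Without the second, 6 members passed it, KEAP1, HMOX1, NQO1, TXNRD1, SRXN1 and OSGIN1, beside 39.6% of all genes, and of these HMOX1 was past 1.5-fold. Over all alternatives the adjusted p of NQO1 ran from 0.000230 to 0.690, that of TXNRD1 from 0.00117 to 0.690 and that of GCLM from 0.0227 to 0.690.

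HMOX1 measured 1.44 and 1.43 log2 CPM in DCIS.COM pCDH-HOTAIR, from 94 and 88 reads, the lowest of the 4 groups and below both empty-vector libraries (2.33 and 1.90). Its log2 fold change was -0.68 (SE 0.17, 95% interval -1.08 to -0.28), or 1.60-fold lower, with an unadjusted p of 0.00460 and an adjusted p of 0.199 from limma. Without the second pCDH-empty library the value was -0.89 with a limma adjusted p of 0.00300, and 10.2% of all genes were called in that fit. Without the first it was -0.46 with a limma adjusted p of 0.234. The adjusted p ranged from 0.00300 to 0.690 over all alternatives for this value.

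NQO1 measured 8.83 log2 CPM in both HOTAIR libraries of DCIS.COM, below the 9.18 and 9.22 of the empty vector. The gap was several times the spread within either pair. The log2 fold change was -0.37 (SE 0.055, 95% interval -0.50 to -0.24), or 1.29-fold lower, with a limma adjusted p of 0.0852, the smallest among the members in this fit. It was -0.39 without the first pCDH-empty library and -0.35 without the second. TXNRD1 measured 7.63 and 7.71 with HOTAIR against 8.09 and 8.07, a log2 fold change of -0.41 (SE 0.068, limma adjusted p = 0.119). SRXN1 measured 6.12 and 6.07 against 6.49 and 6.36, a log2 fold change of -0.33 (SE 0.069, limma adjusted p = 0.153), which was -0.26 without the first pCDH-empty library and -0.39 without the second. Both thioredoxin members thus lay below the empty vector without overlap, and by less than 1.5-fold. OSGIN1 measured 2.57 and 2.75 log2 CPM with HOTAIR, from 209 and 223 reads, against 3.22 and 3.07, a log2 fold change of -0.48 (SE 0.15, limma adjusted p = 0.229). Without the first or the second pCDH-empty library it was -0.41 or -0.56.

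For the glutathione members and the regulators in DCIS.COM, 0 had an unadjusted p under 0.05 in limma. GCLM measured 5.00 and 5.01 log2 CPM with HOTAIR, just below the lower of the empty-vector libraries (5.06 and 5.38), and its log2 fold change of -0.21 was -0.38 without the first of the latter, -0.054 without the second and -0.40 with GC correction. GCLC measured 6.18 and 6.20 with HOTAIR, overlapping the empty vector, and its value of -0.13 was -0.27 without the first pCDH-empty library and turned to 0.014 without the second. KEAP1 differed by -0.14 (95% interval -0.30 to 0.025), by -0.072 without the first and -0.20 without the second pCDH-empty library, and by -0.065 with GC correction. NFE2L2 differed by 0.00011 (95% interval -0.14 to 0.14), turning to -0.020 with median centring and -0.082 with GC correction. For the transcript of NRF2 itself, the intervals in both lines therefore left out a change of 1.5-fold.

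The difference of the HOTAIR effect between the lines, DCIS.COM minus MCF10A, was tested as an interaction in the same fit, sharing its libraries with both comparisons above. Limma called 0 members at an adjusted p under 0.05, beside 0.0436% of all genes, and limma-voom called 0. There were 4 members with an unadjusted p under 0.05, HMOX1, NQO1, TXNRD1 and SRXN1, beside 10.5% of all genes. For HMOX1 the difference was -1.12 log2 units (SE 0.24, 95% interval -1.69 to -0.55, limma adjusted p = 0.262), HOTAIR libraries being higher than empty-vector libraries in MCF10A and lower in DCIS.COM. TXNRD1 and NQO1 had the same arrangement, with differences of -0.54 (SE 0.096) and -0.47 (SE 0.077) and limma adjusted p-values of 0.171 and 0.152. The difference was -0.42 for OSGIN1 and -0.27 for SRXN1, and from -0.14 to -0.018 for KEAP1, GCLC, GCLM and NFE2L2. All 9 were below 0, with a median of -0.27 against 0.0085 over all genes, although NFE2L2 (0.0094) and GCLM (0.0085) turned with RN7SL1 and RN7SL2 left out of the library total. With GC correction the difference was -0.25 for GCLM, -0.13 for NFE2L2 and -0.030 for KEAP1.

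These interaction calls depended on the DCIS.COM pCDH-empty pair. Without the second library of that pair HMOX1 (-1.34), NQO1 (-0.45), TXNRD1 (-0.55) and SRXN1 (-0.34) were called, while 32.1% of all genes were called in that fit. Without the first library, NQO1 (-0.48) and TXNRD1 (-0.53) were called, with 0.646% of all genes. The difference without the first library was -0.90 for HMOX1 and -0.21 for SRXN1. In either fit the lone library is assumed to vary like the other groups.

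A search for profiles like that of HMOX1 compared, over the 8 libraries, log2 CPM minus the gene's own mean. Among 11635 genes with a symbol and a mean log2 CPM of at least 1, the smallest root mean square difference was that of CCN1 with 0.089, a matricellular protein gene. It was followed by PNPLA2, a triglyceride lipase gene, with 0.15 and GFOD1 with 0.16, whereas the median gene was at 0.72. CCN1 measured 4.59 and 4.85 log2 CPM in MCF10A pCDH-empty, 5.05 and 5.17 with HOTAIR, 4.21 and 3.88 in DCIS.COM pCDH-empty and 3.45 and 3.55 with HOTAIR. All 3 genes shared with HMOX1 the order of the groups, from MCF10A with HOTAIR down to DCIS.COM with HOTAIR. In each the first DCIS.COM pCDH-empty library was above the second. Both traits follow from the choice of these genes by closeness to HMOX1 over the same libraries and are no separate result. Among the members GCLM (0.40) and NFE2L2 (0.41) were closest to HMOX1, and OSGIN1 (1.46) and NQO1 (1.59) were the farthest.

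**Figure D3:**
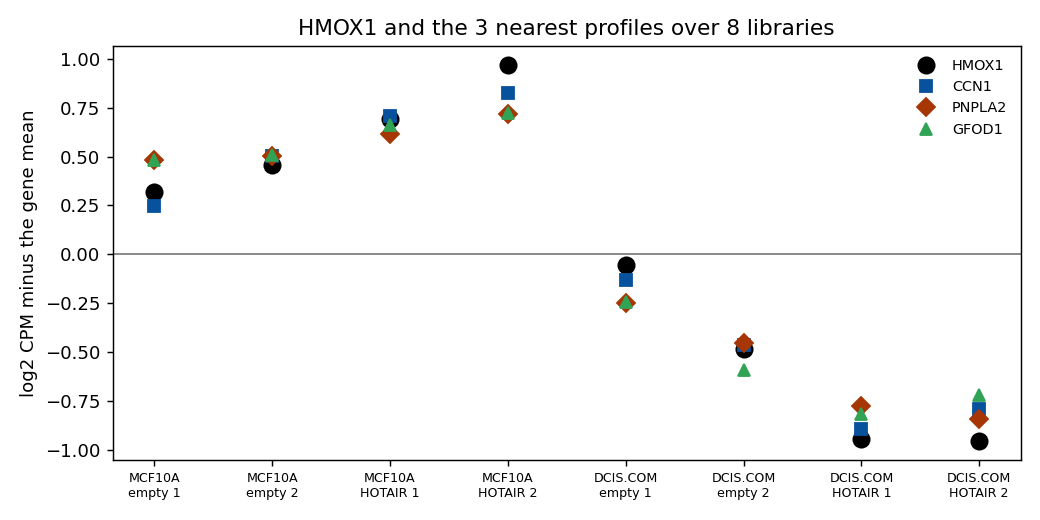
Log2 CPM minus the gene mean in each of the 8 libraries for HMOX1 and the 3 genes with the nearest profile. All 4 are highest in MCF10A with HOTAIR and lowest in DCIS.COM with HOTAIR, which follows from choosing the 3 genes by closeness to HMOX1 in these libraries.

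The members were then set beside 9 lists of genes that work in or around the pathway, none of which includes a member. Under HOTAIR no gene of these lists was called by limma in either line or in the interaction. List values that rest on the widely spread DCIS.COM pCDH-empty pair are given with both of its libraries only, so their stability is not shown. Counts at an unadjusted p under 0.05 are given with each list for DCIS.COM, where 17.5% of all genes passed that limit, and the calls of DCIS.COM over MCF10A stand beside 22.5% of all genes called higher and 23.8% called lower.

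**Figure D4:**
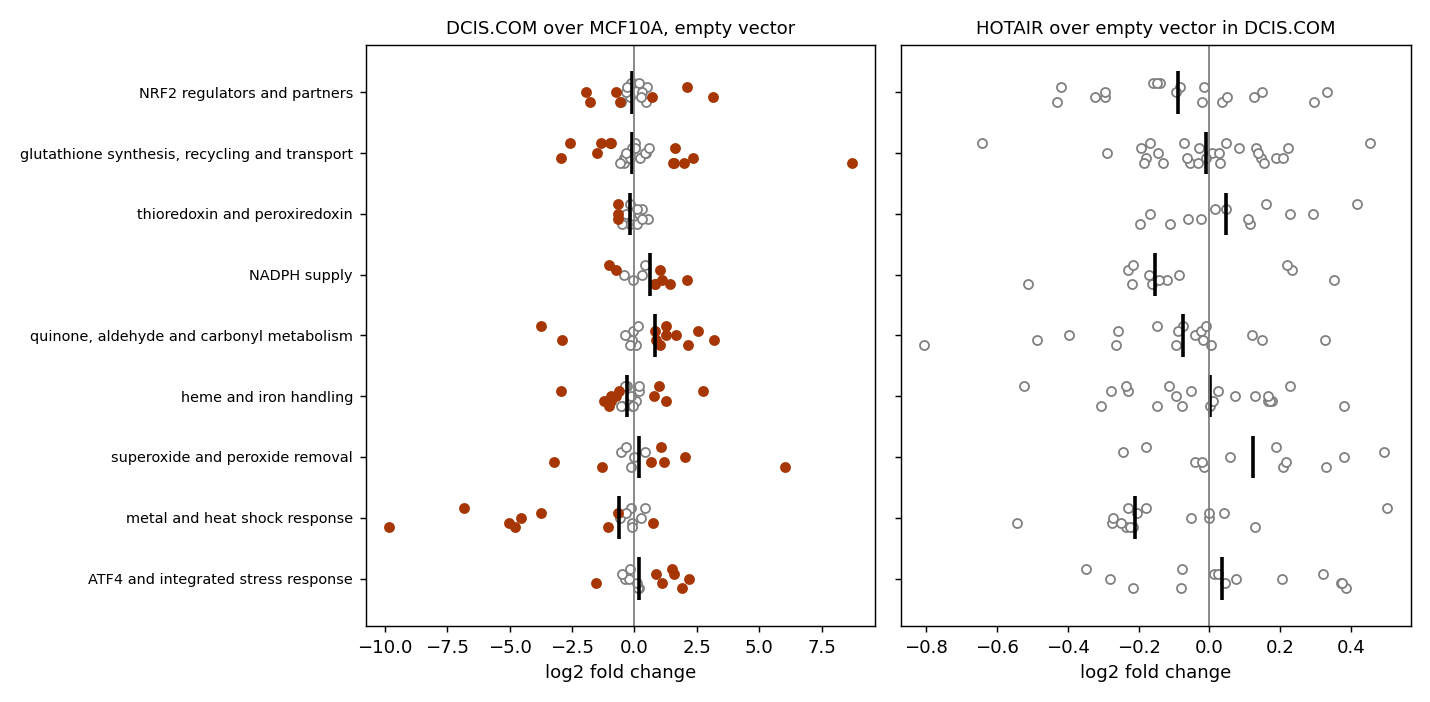
Log2 fold change of every gene of the 9 lists (points), with the median of each list (line), for DCIS.COM over MCF10A with the empty vector (left) and for HOTAIR over empty vector in DCIS.COM (right). Filled points were called; in the right panel no point is filled, and the axes differ in scale.

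Of 18 measured regulators and partners of NRF2, 3 were higher and 4 lower in DCIS.COM than in MCF10A (median -0.11). NFE2L3, a relative of NRF2, was higher by 3.15 on the log2 scale, and SQSTM1, the autophagy receptor that binds KEAP1, by 2.12. BACH1, the repressor of HMOX1, was lower by -1.77 and the small MAF gene MAFF by -1.93. With HOTAIR in DCIS.COM, 1 gene of the list, BACH1, was higher and 4 were lower at an unadjusted p under 0.05 (median -0.088). BACH1 had 39.3 and 39.4 CPM with HOTAIR against 29.2 and 35.2 CPM without, a log2 fold change of 0.30 (limma adjusted p = 0.229). Its interaction was 0.33 (limma adjusted p = 0.445). The values of HMOX1 lay below 0 in both comparisons, whereas between the lines BACH1 (-1.77) and HMOX1 (-0.66) were both lower in DCIS.COM. A link between these genes was not tested. SQSTM1 was among the 4 lower genes, with a log2 fold change of -0.42 (limma adjusted p = 0.112). Its levels were 553 and 561 CPM against 708 and 785 CPM. In MCF10A SQSTM1 reached 171 to 176 CPM with HOTAIR and 169 to 175 CPM without.

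More of the NADPH-supplying enzymes and of the quinone, aldehyde and carbonyl enzymes were called higher than lower in DCIS.COM. Of 12 NADPH genes, 6 were called higher and 2 lower (median 0.62). The pentose phosphate enzyme PGD was higher by 2.12 and mitochondrial MTHFD2 by 1.09, while the transhydrogenase NNT was lower by -1.03. Of 17 quinone, aldehyde and carbonyl genes, 9 were called higher and 2 lower (median 0.83). AKR1C1 (3.19) and ALDH3A1 (2.55) were higher, and AKR1B1 (-3.75) and PTGR1 (-2.91) lower. AKR1C1 and AKR1C2 are near-identical copies, so their separate values are uncertain.

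Under HOTAIR in DCIS.COM, 3 NADPH genes were higher and 3 lower at an unadjusted p under 0.05 (median -0.15). NNT was at 0.22 (limma adjusted p = 0.222). In the second list 1 gene was higher and 5 lower (median -0.075), among them AKR1C1 with -0.49 (limma adjusted p = 0.154) and AKR1C2 with -0.40 (limma adjusted p = 0.124). In MCF10A the smallest p-values of these lists were those of AKR1B1 (0.33) and ALDH1A3 (0.29), with limma adjusted p-values of 0.246 and 0.431. The interaction of AKR1C1 was -0.82 (limma adjusted p = 0.180).

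Heme and iron genes are the nearest functional neighbours of HMOX1, which releases iron from heme. Of 21 measured, 4 were called higher and 7 lower in DCIS.COM than in MCF10A (median -0.30). The ferritin heavy chain FTH1 was lower by -2.94, from a mean of 2985 CPM to 392 CPM, and the iron transporter SLC11A2 by -1.24, whereas the heme transporters SLC48A1 (2.77) and FLVCR1 (1.26) were higher. With HOTAIR in DCIS.COM, 1 gene was higher and 5 were lower at an unadjusted p under 0.05 (median 0.00068). The ferritin light chain FTL differed by -0.52 (limma adjusted p = 0.119), and HMOX2, the constitutive heme oxygenase, by -0.31 (limma adjusted p = 0.229). In MCF10A the 2 ferritin genes had the smallest p-values, with log2 fold changes of 0.35 for FTH1 (limma adjusted p = 0.463) and 0.29 for FTL (limma adjusted p = 0.494). Their HOTAIR values thus lay on opposite sides of 0 in the 2 lines, as for HMOX1, and the interactions were -0.82 for FTL and -0.63 for FTH1 (limma adjusted p = 0.152 and 0.302). Both ferritin genes have many processed copies in the genome, which makes their counts uncertain.

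The 27 measured genes of glutathione synthesis, recycling and transport split evenly between the lines, with 6 higher and 6 lower in DCIS.COM (median -0.12). GPX2, an epithelial glutathione peroxidase, was higher by 8.72. It had 5 reads over both MCF10A pCDH-empty libraries and 3828 in DCIS.COM, a ratio of 778 with a 95% counting interval of 333 to 2396. Here and below, such ratios come from reads scaled by depth, without the prior that the deposited log2 values carry. Where reads are few they are therefore larger than the log2 fold change implies. The export pump ABCC4 was higher by 2.34, and ABCC2 (-2.58) and the secreted peroxidase GPX3 (-2.95) were lower. With HOTAIR in DCIS.COM, 1 was higher and 2 were lower at an unadjusted p under 0.05 (median -0.010), with ABCC2 at -0.64 (limma adjusted p = 0.147). In MCF10A, ABCC4 was at 0.64 (limma adjusted p = 0.212).

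Of the 13 thioredoxin and peroxiredoxin genes, 0 were called higher and 3 lower in DCIS.COM by limma (median -0.16). These were PRDX2 (-0.68), TXNDC17 (-0.68) and PRDX5 (-0.64). In DCIS.COM, 3 genes of this list were higher with HOTAIR and 1 lower at an unadjusted p under 0.05 (median 0.048). TXNIP, the thioredoxin inhibitor, was at 0.42 (limma adjusted p = 0.124).

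Of 12 superoxide and peroxide genes, 5 were higher and 2 lower in DCIS.COM than in MCF10A (median 0.20). Catalase, CAT, was higher by 2.05 and SESN3 by 6.03, the latter from 3 reads over both MCF10A libraries, a ratio of 152 with a 95% counting interval of 51.9 to 736. Mitochondrial superoxide dismutase, SOD2, was lower by -3.22 and the methionine sulfoxide reductase MSRB2 by -1.29. With HOTAIR in DCIS.COM, 3 were higher and 0 lower at an unadjusted p under 0.05 from limma (median 0.12), SESN1 being at 0.49 (limma adjusted p = 0.194). In MCF10A, MSRB3 was at 0.74 (limma adjusted p = 0.155).

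Among the 16 metal and heat shock response genes, 1 was called higher and 8 lower in DCIS.COM (median -0.61). The metallothioneins, which bind zinc and copper and are induced together with HMOX1 by metals, had the lowest values. MT2A was lower by -4.79, MT1F by -5.01, MT1X by -6.83 and MT1E by -9.85. MT1E had 2 reads over both DCIS.COM pCDH-empty libraries and 5685 in MCF10A, a ratio of 2797 with a 95% counting interval of 774 to 23099. The MT1 genes are close copies of each other, so reads may be split between them. With HOTAIR in DCIS.COM, 1 was higher and 6 were lower at an unadjusted p under 0.05 (median -0.21). MT1X was at 0.50 (limma adjusted p = 0.179) and the chaperone HSPH1 at -0.27 (limma adjusted p = 0.186). In MCF10A, MT2A was at 0.40 (limma adjusted p = 0.320).

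Of 14 genes of ATF4 and the integrated stress response, which shares some targets with NRF2, 6 were higher and 1 lower in DCIS.COM (median 0.17). The serine and asparagine synthesis genes PHGDH (2.18), ASNS (1.91) and SHMT2 (1.57) were higher and ATF3 (-1.52) was lower. With HOTAIR in DCIS.COM, 2 were higher and 2 lower at an unadjusted p under 0.05 (median 0.035), with TRIB3 at -0.35 (limma adjusted p = 0.179) and VLDLR at 0.38 (limma adjusted p = 0.246). In MCF10A, VLDLR was at 0.61 (limma adjusted p = 0.276).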

How the data were processed

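Per the methods of the study, ScriptSeq libraries were read as paired ends, aligned to hg19 (Rsubread) and summed over UCSC known genes (featureCounts), and the authors normalised with edgeR. The authors deposited log2 CPM values of 13771 genes, of which 343 carried no symbol. Strand setting, prior and normalisation factors are not given in the sources used here. Equal steps in the delogged values gave back whole reads for 100% of the values (tolerance 0.1 read).

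The members and gene lists were chosen with earlier results of these data known. The deposited log2 values were fitted with limma 3.58.1 in R 4.3.3 (4 group means, mean-variance trend), with Benjamini-Hochberg adjustment over all 13771 genes. The procedure was tested on simulated data in which every library had the same spread. That setting lacks the wide DCIS.COM pCDH-empty pair, and its changes were larger than the HOTAIR log2 fold changes of the members. The interaction had no fold threshold. An exact permutation test of 2 against 2 libraries cannot go below p = 0.333 and was not used. The named genes are the 9 members, up to 4 called genes per list with the largest change (where none was called, up to 2 with the smallest p) and the 3 profiles nearest to HMOX1. One gene that this rule names is not reported here. Gene positions, exon overlaps, MANE Select lengths and GC content (13148 genes, 95.5%) were taken from a GENCODE annotation on GRCh37. Counting intervals are exact Poisson intervals and cover counting error only. HMOX1 had its fewest reads, 88, in DCIS.COM pCDH-HOTAIR, and OSGIN1 its fewest, 41, in MCF10A pCDH-HOTAIR. Beside the main fit, 21 alternatives were run.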

Additional observations from a re-analysis of the deposited data

Results flagged for a closer look

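HMOX1, NQO1 and TXNRD1 are given here because both HOTAIR libraries lay above both empty-vector libraries in MCF10A and below them in DCIS.COM. The difference of the HOTAIR effect between the lines was -1.12 log2 units for HMOX1, -0.47 for NQO1 and -0.54 for TXNRD1. When this difference was itself tested as an interaction in limma, the adjusted p was 0.262, 0.152 and 0.171, so none of the 3 passed. The DCIS.COM pCDH-empty pair, which enters each of these values, had the largest spread of the 4 groups (a median absolute difference of 0.20 log2 units between its libraries).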

How the results depend on the processing

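Of the log2 fold changes of members recomputed under the alternatives, 689 of 729 kept their direction and their side of the threshold. Many of these could not change direction, since some alternatives altered only the test or the threshold, or left out a library outside the comparison. The 689 therefore overstate how stable the values were. The count of members called with HOTAIR in MCF10A was 0 under every alternative run. In DCIS.COM it was 0 to 1 when a library was left out. For the interaction it was 1 with GC correction (NQO1, -0.47, limma adjusted p = 0.0424, in a range of 0.000418 to 0.783) and 0 to 4 when a library was left out. Between the lines, the 5 called members were 3 with GC correction, 2 at a log2 fold change of 1.5, and 4 to 5 when a library was left out.

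The values whose sign turned were all of members not called in that comparison. KEAP1 in MCF10A (0.0033) was -0.0054 without RN7SL1 and RN7SL2 in the library total and -0.036 with GC correction. NFE2L2 in DCIS.COM (0.00011) was -0.020 with median centring and -0.082 with GC correction. In the interaction, NFE2L2 was 0.0094 and GCLM 0.0085 without RN7SL1 and RN7SL2 in the total. TXNRD1 between the lines was 0.017 with median centring. With a library left out, the ranges were as follows. In MCF10A they ran from -0.011 to 0.048 for NFE2L2, -0.036 to 0.043 for KEAP1 and -0.20 to 0.064 for OSGIN1. In DCIS.COM they ran from -0.036 to 0.036 for NFE2L2 and -0.27 to 0.014 for GCLC. In the interaction they ran from -0.054 to 0.018 for NFE2L2, -0.17 to 0.11 for GCLC and -0.18 to 0.14 for GCLM. Between the lines TXNRD1 ran from -0.090 to 0.038.

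Over all genes, the 3 calls of HOTAIR in MCF10A were 6 with a pseudocount of 1, 5 without RN7SL1 and RN7SL2 in the total, 15 with GC correction, 5 with limma-voom, 1 in a separate fit of the line or at a log2 fold change of 1.5, and 1 to 51 with a library left out. The 12 calls in DCIS.COM were 52 with GC correction, 6 without the trend, 0 in a separate fit, 1 at a log2 fold change of 1.5, and 1 to 1403 with a library left out. The 6 interaction calls were 10 with a pseudocount of 1, 19 with GC correction, 0 without the trend, and 0 to 4414 with a library left out. The 6370 calls between the lines were 2418 at a log2 fold change of 1.5. With the replicate block the calls were 20 in DCIS.COM and 0 in the interaction, while HMOX1 in DCIS.COM stayed at -0.68 (limma adjusted p = 0.259, in a range of 0.00300 to 0.690), and no member's call changed. Over all genes, same-numbered libraries of the 2 vectors deviated together little (r = 0.066 in MCF10A and -0.0089 in DCIS.COM). Such a correlation over all genes cannot show whether a weak pairing by number was present. The causes of these changes were not tested. Depth limits HMOX1 and OSGIN1 most, whose lowest libraries held 88 and 41 reads.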
